A study of Mus musculus with 21 samples.

Results

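The cells described here were mouse brain endothelial cells with at least 1 transcript of Mfsd2a, a gene of blood-brain barrier capillaries, and no transcript of 8 genes that mark other vessel segments. They were taken from 1 single-cell RNA library, in which each transcript molecule was counted once by its unique molecular identifier (UMI). Of 9405 cell barcodes, 8645 were kept because they had at least 500 detected genes and at most 10% of UMIs from mitochondrial (mt-) genes. Members had 1 or more Mfsd2a UMIs and 0 UMIs of each of Gkn3, Bmx, Vegfc and Fbln5 (arterial), Ackr1, Lcn2 and Vcam1 (venous) and Plvap (fenestrated endothelium). This rule found 4667 cells, 54.0% of the kept cells. The rule read the count of Mfsd2a and of the 8 other genes, so differences in these 9 genes between members and other cells are a description and not a finding.

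The study set brain endothelium against that of lung and liver. The mice were C57BL/6J, 2 to 4 months old and perfused with PBS. The tissues were digested with collagenase IV, dispase and DNase, with a myelin removal step for brain alone, and live CD31+ cells negative for CD45 and PDGFRβ were sorted. The brain cells of the single-cell library, labelled Young, carried no transgene or treatment named in the labels, and no source used here states how many animals were pooled into it. Beside it, 3 bulk RNA libraries each from brain, lung and liver endothelium served as a readout that the rule did not use.

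Mfsd2a encodes a membrane carrier that imports lysophosphatidylcholine bearing omega-3 fatty acids such as docosahexaenoic acid into the brain, and it is known to hold caveolar vesicle traffic low in brain capillaries. Brain endothelium changes along its vessels from arteries through capillaries to veins. Capillary cells carry many of the solute carriers of the barrier, arterial cells carry Notch targets such as Hey1 and the ligand Efnb2, and venous cells carry the transcription factor Nr2f2 and adhesion genes such as Vwf and Icam1. Wnt ligands acting through beta-catenin and Lef1 keep the barrier programme in these cells.

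The stretch of 250 bases before the start of Mfsd2a is shown because that gene chose the cells. Those of Ivns1abp and Lrp8 were picked from the genes that were past the 1.5-fold limit in both comparisons below and were measured in bulk too. Other genes, such as Angptl4, met this as well and are not shown. Ivns1abp encodes a Kelch repeat protein that binds actin and splicing factors, and Lrp8 encodes a receptor for reelin and apolipoprotein E. The stretches come from RefSeq, GRCm38.p6, at chr4:122961189-122961438 on the minus strand, chr1:151344236-151344485 on the plus strand and chr4:107802635-107802884 on the plus strand. The table lists 2 starts for Ivns1abp and 3 for Lrp8, and the first listed was taken. Each is written 5′ to 3′ along the gene, with the motif matches in capitals.
Mfsd2a: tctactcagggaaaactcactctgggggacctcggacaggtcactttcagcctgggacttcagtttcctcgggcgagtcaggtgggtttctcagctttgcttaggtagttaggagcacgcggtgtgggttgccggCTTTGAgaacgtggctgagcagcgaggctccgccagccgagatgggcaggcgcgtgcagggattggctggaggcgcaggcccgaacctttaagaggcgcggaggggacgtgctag
Ivns1abp: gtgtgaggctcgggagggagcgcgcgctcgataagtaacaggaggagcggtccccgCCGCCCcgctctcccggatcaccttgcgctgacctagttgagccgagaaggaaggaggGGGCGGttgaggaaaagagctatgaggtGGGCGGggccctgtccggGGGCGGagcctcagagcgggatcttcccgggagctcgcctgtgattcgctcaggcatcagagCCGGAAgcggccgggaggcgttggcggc
Lrp8: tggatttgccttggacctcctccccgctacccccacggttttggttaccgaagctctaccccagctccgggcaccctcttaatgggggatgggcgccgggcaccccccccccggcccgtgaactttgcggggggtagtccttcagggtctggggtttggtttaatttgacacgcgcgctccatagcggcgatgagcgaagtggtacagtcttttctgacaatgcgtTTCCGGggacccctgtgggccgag
Capitals mark letters that match, on either strand, 1 of 6 motifs: CTTTGA (TCF/LEF core), CACGTG (E-box), CCGGAA (ETS core), GTAAACA (forkhead), GGGCGG (GC box) and TCACNCCAC (sterol response). The Mfsd2a stretch held 1 match, CTTTGA, from 115 to 110 bases before the start, and 13.8% of 32851 promoter stretches of the same length held that motif. The Ivns1abp stretch held 4 GC boxes and an ETS core from 28 to 23 bases before the start. The Lrp8 stretch held an ETS core, read on the other strand, from 24 to 19 bases before its start. ETS cores stood in 12% and GC boxes in 32.7% of all stretches, and no match in these 3 stretches overlaps another.

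The members carried endothelial markers throughout. They held 14294 Mfsd2a UMIs, a level of 604 CPM (95% exact Poisson interval 594 to 614), where all kept cells together stood at 414 CPM. CPM here is the gene's UMIs per 1000000 UMIs of the group. Cldn5, the main claudin of the barrier, had a UMI in 99.7% of members and Flt1, a VEGF receptor, in 99.9%. Only 16 members had no Cldn5 UMI. The most abundant protein-coding transcripts included Bsg at 12228 CPM, Cldn5 at 4794, Cxcl12 at 4372 and Itm2a at 3906. All intervals here cover counting error only, because cells of 1 library are not replicates and no test between cell groups was possible.

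Most members carried few Mfsd2a UMIs. Of the 4667, 1391 (29.8%) had exactly 1, 1035 (22.2%) had 2, 749 (16%) had 3, 876 had 4 or 5 and 616 had 6 or more, up to 18. Members with 1 Mfsd2a UMI had a median of 3764 UMIs in all, and those with 2 or more had 5000. Just outside the rule stood 1873 kept cells with Cldn5 but with no UMI of Mfsd2a or of the 8 genes, and 477 cells with Mfsd2a and exactly 1 UMI of the 8. At the other thresholds, 12 members lay within 50 genes above the minimum against 9 otherwise matching cells within 50 below it, and 22 members had over 9% mt- UMIs against 31 otherwise matching cells at 10 to 11%.

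Detection of Mfsd2a rose with the depth of the cell, mostly below 3000 UMIs, while its level rose and then fell. Among kept cells under 1000 UMIs, 22.5% (95% Clopper-Pearson interval 17.2 to 28.6) had a Mfsd2a UMI. The share was 64.8% between 2000 and 3000 UMIs, 71.8% between 3000 and 4000 and 70.8% between 6000 and 8000. It was 79.9% (76.0 to 83.5) at 10000 or more. The level of Mfsd2a was 326 CPM in the shallowest class, 579 between 2000 and 3000 UMIs and 344 in the deepest. Membership peaked in between, at 61.7% of cells between 3000 and 4000 UMIs, and was 46.4% in the deepest class. The 1127 kept cells with both Mfsd2a and a UMI of the 8 genes had a median of 6070 UMIs. When each cell was thinned to 3205 UMIs, 84.5% of the 3501 members deep enough kept a Mfsd2a UMI, and 1166 members were too shallow. A cell without a Mfsd2a UMI is therefore not shown to lack the transcript.

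**Figure D1:**
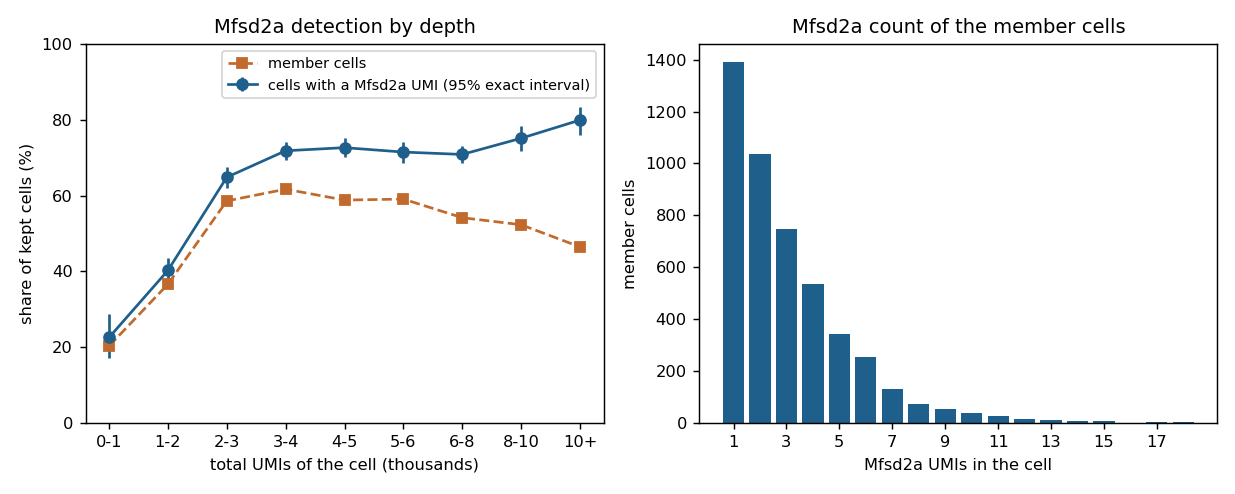
Left, share of kept cells with a Mfsd2a UMI (circles, bars are 95% exact intervals) and share that were members (squares) by total UMIs of the cell. Right, number of member cells by their count of Mfsd2a UMIs; detection climbs from 22.5% to 79.9% with depth, and 1391 members rest on 1 UMI.

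Mfsd2a fell off unevenly among cells that carried the excluded genes. In the 6602 kept cells with none of the 8, Mfsd2a stood at 465 CPM (457 to 472). In cells with 3 or more UMIs of an arterial gene it was 264 (244 to 286) for Bmx, a cytoplasmic tyrosine kinase, 256 (236 to 278) for Gkn3 and 202 (181 to 226) for Vegfc, a lymphatic growth factor. It was lower with Fbln5, a protein of elastic fibres in large arteries, at 72.8 (55.6 to 93.8). In cells with venous genes it was 140 (123 to 159) for Vcam1, a leukocyte adhesion molecule, 97.1 (70.8 to 130) for Lcn2 and 38.5 (18.5 to 70.8) for Ackr1, a chemokine decoy receptor. The lowest level was 24.6 (15.4 to 37.2) in the 142 cells with Plvap, which forms the diaphragms of fenestrae and caveolae. The intervals of the Fbln5, venous and Plvap classes all lay below those of the Bmx, Gkn3 and Vegfc classes. A cell could stand in several of these classes, so they are not separate groups. The Ackr1 interval overlapped those of Fbln5 and Plvap, and those of Bmx and Gkn3 overlapped each other. These classes were deeper, with medians of 5704 to 8590 UMIs against 4253. Their shares of cells with a Mfsd2a UMI ran from 8.45% for Plvap to 51.9% for Vegfc, against 70.7% of the cells with none of the 8.

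**Figure D2:**
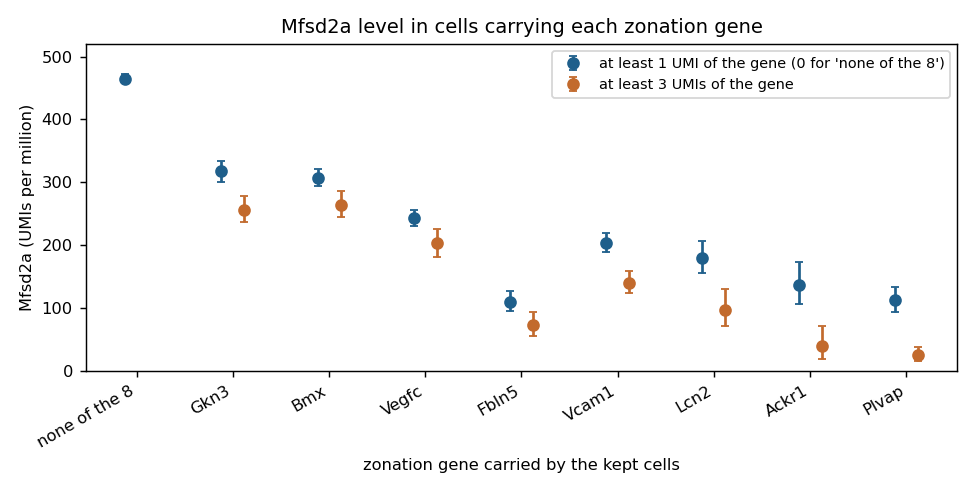
Mfsd2a level in CPM, with 95% exact Poisson intervals, in kept cells with at least 1 or at least 3 UMIs of each of the 8 excluded genes, and in cells with none of them. The level runs from 465 in cells with none of the 8 to 24.6 in cells with 3 or more Plvap UMIs.

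Transcripts of other cell types were low in the members, apart from hemoglobin. The erythroid list summed to 9164 CPM in members, with a UMI in 74.2% of them, against 15160 in the comparison cells defined below. The astrocyte list summed to 122, the oligodendrocyte list to 84.6, the choroid plexus list to 60.5 and the microglial list to 27.6 CPM. Leukocyte genes, with a UMI in 0.364% of members, and fibroblast genes were near 0, at 1.73 and 1.1 CPM. As a reference for free RNA, only 11 kept cells had no UMI of 5 endothelial genes, and none had a Mfsd2a UMI, which allows a share of up to 27.3%. Of 64 cells with hemoglobin at 10% of UMIs or more, 60.9% had Mfsd2a, at 165 CPM. The part of free RNA in the members' counts was not tested.

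The members were compared with the 2675 kept cells that had 0 Mfsd2a and at least 1 Cldn5 UMI, and these comparison cells were shallower, with a median of 3888 UMIs against 4584. To allow for depth, 2416 cells of each group were drawn at matched total UMIs, which gave medians of 4246 and 4290. Of these comparison cells many carry the 8 arterial, venous and fenestrated genes that members lack by rule. A second comparison therefore used 1672 members and 1672 of the 1873 comparison cells that also lacked all 8, called the zonation-free comparison cells here. A gene was counted as past the fold when its level in CPM differed at least 1.5-fold, among genes with at least 200 UMIs over both groups. Of 8663 genes measured so, 95 (1.1%) were higher and 278 (3.21%) lower in the members, 4.31% in all. Against the zonation-free cells, 28 of 7393 (0.379%) were higher and 64 (0.866%) lower, 1.24% in all.

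Capillary genes and barrier carriers were higher in the members. Of 11 capillary and venous capillary genes, 9 were past the fold in the members and all 11 stood above 1. The list had a median log2 ratio of 0.69, where all genes had 0.02. The comparison cells could hold the arterial, venous and fenestrated genes that members lack by rule. The first comparison therefore cannot test whether capillary genes or carriers are higher apart from that choice of cells. The capillary list, which holds Ivns1abp, was also chosen with earlier results of these data known. Slc7a1, a carrier of cationic amino acids, stood at 854 CPM in members and 496 in comparison cells, 1.72-fold (interval 1.67 to 1.78). Tfrc, the transferrin receptor that brings in iron, stood at 431 and 247, 1.74-fold (1.66 to 1.83). Slc22a8, an organic anion carrier, stood at 392 and 233, 1.68-fold (1.60 to 1.76). Slc16a1, which carries lactate and ketone bodies, was 1.62-fold higher at 321 and 198, and Slc7a5, which carries large neutral amino acids, 1.63-fold at 315 and 193. Car4, a carbonic anhydrase held on the cell surface, was 1.54-fold higher, at 934 against 608. These ratios were not even over depth. In cells under 3205.5 UMIs, Slc7a5 stood at 437 CPM in members and 368 in comparison cells, Tfrc at 516 and 416. There Slc16a1 stood at 429 and 334 and Car4 at 964 and 819. In cells of 6448 UMIs or more, Slc7a5 stood at 265 and 112 and Tfrc at 442 and 164. In these deeper cells Slc16a1 stood at 283 and 134 and Car4 at 903 and 369.

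Without the vessel genes in the comparison cells these ratios shrank but kept their direction. All 11 capillary genes stayed above 1 and only Ivns1abp stayed past the fold, with a list median of 0.31 against 0.03 for all genes. Tfrc was then 1.36-fold, Slc22a8 1.36-fold, Slc7a1 1.30-fold, Slc16a1 and Slc7a5 1.24-fold and Car4 1.08-fold. The list's summed level was 11159 against 9134 CPM, where it had been 10966 against 7299 in the first comparison.

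Of the 21 measured barrier solute carriers, some of which are also in the capillary list, 7 were past the fold in the first comparison. None was lower past it and 18 were above 1, with a median log2 ratio of 0.53. Slc39a8, an importer of zinc and manganese, stood at 148 against 88.0 CPM, 1.68-fold. Slco1a4, a carrier of organic anions, stood at 3836 against 2598, 1.48-fold. Slc2a1, the glucose carrier of the barrier, stood at 2918 against 2370, 1.23-fold. Slc2a1 did not shrink, at 1.27-fold against the zonation-free cells, where none of the 21 carriers passed the fold and their median was 0.24. Of 7 ABC efflux pumps, all were above 1 in both comparisons, 2 (Abcc6 at 1.59-fold and Abcg1 at 1.53-fold) past the fold in the first and none in the second. Abcb1a, the P-glycoprotein of the barrier, was 1.20-fold and 1.09-fold.

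Genes other than carriers also had large ratios in the members. Scube2, which helps release hedgehog ligands, stood at 18.7 against 6.47 CPM, 2.90-fold (2.21 to 3.84). Ivns1abp stood at 691 against 304, 2.27-fold (2.18 to 2.36), and Lrp8 at 466 against 240, 1.94-fold (1.85 to 2.03). Against the zonation-free cells Scube2 was 2.75-fold, Ivns1abp 1.78-fold (1.70 to 1.87) and Lrp8 1.52-fold (1.44 to 1.60). Gpr85, an orphan receptor, was 2.35-fold and 1.76-fold in the 2 comparisons and Serpine2, a thrombin inhibitor, 2.12-fold and 1.69-fold. Cxcl12, a chemokine, was among the most abundant, at 4332 against 2434 CPM, 1.78-fold, and 1.43-fold against the zonation-free cells. It was higher in the members in each of 4 depth classes, from 4792 against 3366 in the shallowest to 3729 against 1663 in the deepest.

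Shares of cells with a UMI pointed the same way at equal depth. Thinned to 3205 UMIs, 63.4% of members had an Ivns1abp UMI, against 36.5% of comparison cells and 45.8% of the zonation-free ones, where the unthinned shares were 72.9%, 46.9% and 52.7%. For Lrp8 the shares were 66.1%, 42.4% and 52.2% (77.1%, 50.8% and 55.9% unthinned). For Tfrc they were 55.7%, 35.3% and 43.2%, where the unthinned shares were 63.0%, 42.5% and 46.7%. Scube2 was sparse, with 5.63%, 2.03% and 2.12% (7.54%, 2.62% and 2.51% unthinned). Thinning left out 1166 members, 1098 comparison cells and 928 of the zonation-free ones as too shallow.

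The oligodendrocyte genes Trf, which encodes transferrin, and Cnp, a myelin enzyme, rested on a few cells, with 67.2% of the members' 131 Trf UMIs and 45.3% of their 148 Cnp UMIs in 3 cells.

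Of 20 genes of the Wnt and beta-catenin list, 3 passed the fold in the first comparison and 17 were above 1, with a median log2 ratio of 0.20. The 3 were Apcdd1, a secreted Wnt inhibitor, at 475 against 288 CPM (1.65-fold), Nkd1, an intracellular inhibitor, at 207 against 128 (1.62-fold), and Notum, which strips the lipid from Wnt proteins, at 149 against 92.1 (1.62-fold). All 3 are known feedback targets of the pathway, which they dampen. Lef1 itself was 1.20-fold. In the second comparison Apcdd1 was 1.23-fold, Nkd1 1.24-fold, Notum 1.43-fold and Lef1 1.05-fold, and none of 19 passed the fold.

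Genes of lipid handling and vesicle traffic moved less. Of 14 fatty acid and lipoprotein genes, 1 was past the fold each way, Lrp8 upward and Fabp4, a fatty acid binding protein of larger vessels, with 3 UMIs against 256. Apoe stood at 872 against 632 CPM, 1.38-fold, and 1.27-fold against the zonation-free cells. None of 18 sterol and lipid synthesis genes passed the fold in the first comparison, nor any of 17 in the second. Of 18 genes of caveolae, clathrin and transcytosis, none was higher past the fold and 4 were lower. These were Ehd1, Ehd2 and Ehd4, which encode membrane-shaping proteins of endocytosis and caveolae, at 0.547, 0.552 and 0.570 of the comparison level, and the caveolar coat gene Cavin3 at 0.571. In the second comparison Ehd1 stayed past the fold at 0.621, while Ehd2 was at 0.775, Cavin3 at 0.809 and Ehd4 at 0.894.

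Junction, pan-endothelial and transcription factor genes differed little. Of 11 tight junction genes, 1 was past the fold, Jam3, a junction adhesion molecule, at 0.510 of the comparison level on 68 against 133 UMIs, and it was 1.16-fold against the zonation-free cells. Cldn5 was 1.16-fold and 1.05-fold, although the comparison rule itself required a Cldn5 UMI. None of 12 brain endothelial transcription factors passed the fold in either comparison. Of the other lists in the first comparison, 1 of 17 pan-endothelial, 1 of 11 Notch, 1 of 14 interferon and antigen presentation and 1 of 3 cell cycle genes were lower past the fold, and none of 15 TGF-beta and BMP genes passed it. Of 14 basement membrane genes 1 was higher, Spock2, a secreted proteoglycan, at 3662 against 2388 CPM (1.53-fold). Of 9 VEGF and angiopoietin genes Angpt2 was higher, at 1.78-fold, and Esm1 and Nrp2 were lower. Of 8 genes of the arterial side of capillaries 2 passed the fold each way.

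**Figure D3:**
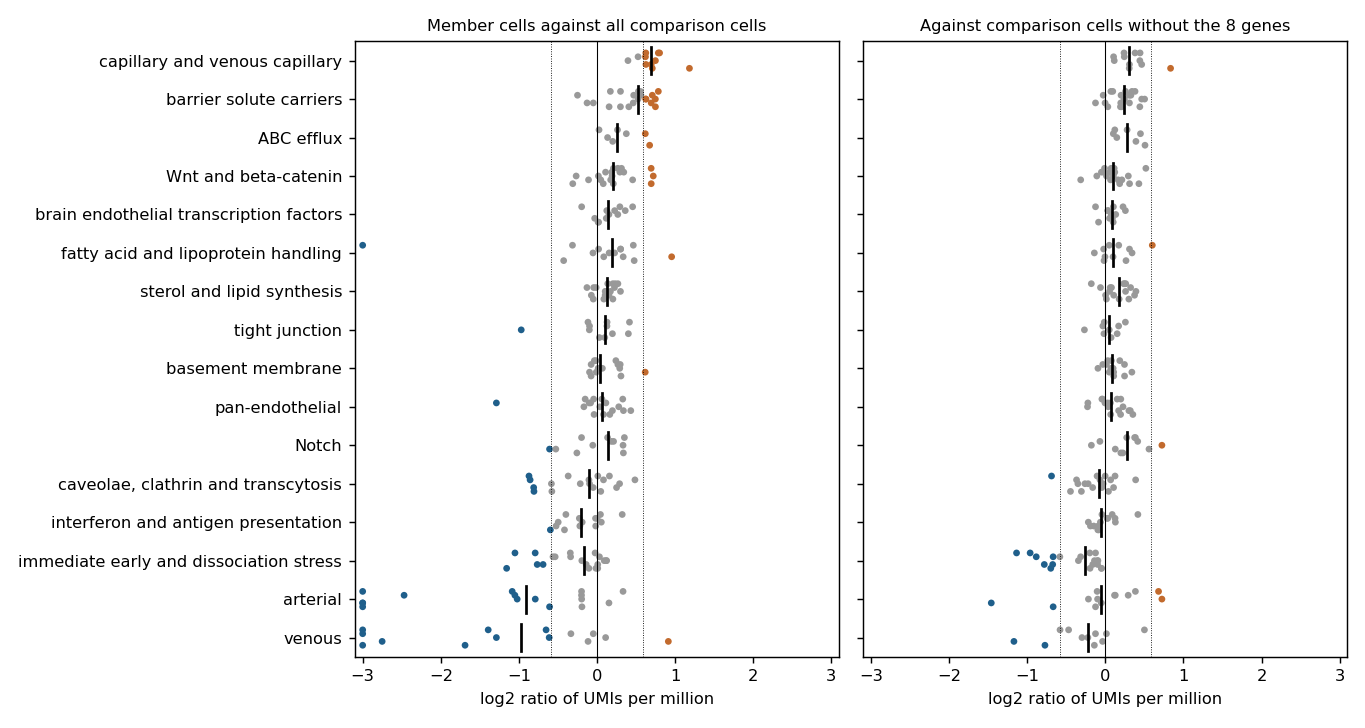
Each point is the log2 ratio of 1 gene, members over comparison cells at matched depth, grouped by list, against all comparison cells (left) and against those without the 8 vessel genes (right). Orange and blue points are at least 1.5-fold higher or lower (dotted lines), black bars are list medians, and values past 3 are drawn at the edge; the capillary list has a median of 0.69 on the left and 0.31 on the right.

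Most arterial and venous genes were lower in the members. Of 16 arterial genes 10 were lower past the fold and none higher in the first comparison. Of 14 venous genes 9 were lower past it and 1 higher, and the whole venous list summed to 2469 against 2840 CPM. Mgp, a matrix protein of arteries and veins, stood at 13.1 against 913 CPM, and Clu, which encodes the secreted chaperone clusterin, had 14 UMIs against 1609. Vwf, the von Willebrand factor, was at 0.409 of the comparison level and Icam1, a leukocyte adhesion molecule, at 0.149. Because the comparison cells could hold the 8 genes and the members could not, this direction was set by the choice of cells. In the second comparison 2 of 13 arterial genes were higher, the Notch ligand Dll4 and Unc5b, and 2 lower, Mgp and Stmn2. Of 11 venous genes 2 were lower, Icam1 and Il1r1.

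Some of the lower genes kept a large ratio with the 8 genes absent from both groups. Ccn3, a matricellular protein, had 34 UMIs against 451, at 0.0753 of the comparison level (0.0515 to 0.107). Cdh13, a cadherin without a cytoplasmic tail, stood at 0.233, Lrrc32, which docks latent TGF-beta, at 0.344, Cd9, a tetraspanin, at 0.365 and Mgp at 0.364. Icam1 was still at 0.445 and Vwf at 0.857. Of the comparison cells' Mgp UMIs, however, 70% lay in 3 cells, and of their Icam1 UMIs 16.6%. The thinned shares of cells with a UMI had overlapping intervals for both genes. For Mgp they were 2.86% of members (2.33 to 3.46) and 3.07% of the zonation-free cells (2.06 to 4.38). For Icam1 they were 7.03% (6.20 to 7.92) and 7.83% (6.20 to 9.73). Ttr and Vtn were also far lower, at 0.0622 and 0.136, but 95.3% and 67.9% of the comparison cells' UMIs lay in 3 cells. Vtn belongs to the mural list, which summed to 83.0 CPM in the drawn members and 246 in these comparison cells, and its part in the other ratios was not tested.

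Igfbp3 changed side between the comparisons. This binding protein of insulin-like growth factors stood at 24.3 CPM in members and 138 in all comparison cells, 0.176 of their level. With the zonation-free cells it stood at 22.1 against 8.66, 2.55-fold (1.87 to 3.51). Angptl4, a lipoprotein lipase inhibitor, was 1.67-fold and 1.81-fold, and Unc5b, a netrin receptor of arterial and tip cells, was 1.11-fold and then 1.60-fold. Htra1, a secreted protease, was 1.03-fold and then 1.72-fold.

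Immediate early genes, which respond within minutes to stimulation or tissue digestion, were lower in the members. Of 20 such genes 5 were lower past the fold in the first comparison, and 7 in the second, where all 20 were below 1 with a median log2 ratio of -0.26. Fos stood at 1036 against 1794 CPM, 0.578 of the comparison level, and at 808 against 1575, 0.513, in the second. Egr1 stood at 0.483 and 0.455, Socs3, a brake on cytokine signals, at 0.448 and 0.617, and Ier3 at 0.588 and 0.627. The result depended on how depth was treated: without matching, none of the 20 passed the fold in the second comparison and the median was 0.02. The share of cells with a Fos UMI, thinned, was 35.9% in members, 43.8% in comparison cells and 40.2% in the zonation-free ones, but unthinned it was 34.2%, 34.5% and 28.7%.

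The barrier counts were lower without the cells with a Fos UMI. When these were left out of both groups, an alternative chosen after seeing the data, 3 of the 11 capillary genes were past the fold in the first comparison instead of 9. Of 21 carriers 1 stayed past it, and of 19 Wnt genes 1. Of all genes, 145 instead of 373 passed the fold in either direction. Ivns1abp kept a log2 ratio of 1.02 and Lrp8 of 0.73 in the first comparison, against 1.18 and 0.96 with all cells, and Ivns1abp kept 0.76 in the second, against 0.84. Fos rose with depth, from 112.5 CPM in members under 3205.5 UMIs to 1870 in members of 6448 UMIs or more. In the comparison cells it rose from 140 to 2985. Fos and depth therefore cannot be told apart in this alternative. The part of early genes in the other ratios was not tested.

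Hemoglobin moved with the comparison too. The erythroid list summed to 6158 CPM in the drawn members and 15529 in the drawn comparison cells, and to 10962 against 21816 in the second comparison. Hba-a1, whose reads can be shared with the near-identical Hba-a2, was at 0.402 and 0.512 of the comparison level. Without cells of high hemoglobin or Ttr, also an alternative chosen after seeing the data, 8 of 11 capillary genes and 6 of 21 carriers were past the fold in the first comparison, and Hba-a1 turned to a log2 ratio of 0.70, higher in the members.

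Among the members the count of Mfsd2a itself separated few genes. At matched depth, 1302 members with 2 or more Mfsd2a UMIs were set against 1302 with exactly 1, and 6 of 6888 genes (0.0871%) were higher past the fold and 37 (0.537%) lower, 0.624% in all. The 6 were Igfbp3 at 2.46-fold, Gfm2 at 1.59-fold, Il13ra1, Sema6d and Ivns1abp at 1.53-fold and Actr6 at 1.51-fold. Which genes passed depended on the draw: with another seed 25 of the 43 passed again, and without depth matching 14. Lrp8 was 1.21-fold and Cxcl12 1.27-fold. Nr2f2 was at 0.565 and Il1r1, the interleukin-1 receptor, at 0.501. Of 11 venous genes 3 were lower past the fold. All 4 measured erythroid genes were too, with a list sum of 1753 against 8579 CPM, as were the 2 measured oligodendrocyte genes, at 12.6 against 314. Without depth matching, however, Hbb-bt turned to a log2 ratio of 0.99, higher in members with 2 or more.

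Members varied most in hemoglobin, and heat shock genes, early genes and Cxcl12 also varied much. The Fano factor, the variance over the mean of a gene's UMIs after thinning to equal depth, had a median of 1.11 over 7198 genes in 3501 members. It was 901 for Hbb-bs, 22.7 for Hspa1a, 19.6 for Fos and 17.9 for Jun. Hspa1a shares reads with the near-identical Hspa1b. Above Cxcl12 also stood Gm42418 at 63.0, Malat1 at 20.7 and Hspb1 at 11.4. Cxcl12 had 8.57, rank 16, and Ivns1abp 5.10, rank 28. Cldn5, at 3.07, and Abcb1a, at 1.59, varied less by this measure. Their means were 15.5 and 5.10 UMIs, where Cxcl12 had 14.5, and the factor was not adjusted for the mean.

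Cxcl12 was then used to order the members from side to side, a comparison chosen after seeing the data. It was made among the 4636 members with under 10% hemoglobin, leaving out 31. The 25% with the highest share of Cxcl12 UMIs (1159 cells above 6466 CPM) were set against the 25% with the lowest (1159 below 1910), and 976 of each were drawn at matched depth. The cuts are points on a continuous range, with 503 members within 10% of the upper cut and 205 within 10% of the lower. Cxcl12 itself was chosen for and is left out. Of 6359 genes, 93 (1.46%) were higher and 109 (1.71%) lower past the fold, 3.18% in all.

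Cells rich in Cxcl12 carried more of the arterial genes than cells poor in it. Of 12 arterial genes measured, 7 were higher past the fold and none lower. Unc5b stood at 97.8 CPM in the upper cells and 24.3 in the lower, 4.02-fold (3.27 to 4.99). Hey1, a Notch target, stood at 130 and 39.5, 3.28-fold, and Efnb2, the arterial ephrin ligand, at 127 and 38.9, 3.27-fold. Tgfb2, a TGF-beta ligand, was 2.72-fold and Sema3g, a semaphorin of arterial endothelium, 2.48-fold. Ivns1abp was 1.88-fold, at 965 against 512. Mfsd2a, which chose the cells, stood at 731 CPM in the upper and 506 in the lower cells, before matching.

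Cells poor in Cxcl12 carried more of the venous genes. Of 11 venous genes 8 were lower past the fold in the upper cells and none higher, with a median log2 ratio of -1.60. Nr2f2, the transcription factor of vein identity, stood at 11.6 CPM in the upper cells and 63.4 in the lower, 0.183 of the level, and Il1r1 at 5.6 and 41.3. Slc38a5, a glutamine carrier, was at 0.292 and Vwf at 0.461. All of these cells lacked Ackr1, Lcn2 and Vcam1 by rule.

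Few of the barrier genes passed the fold along this order. Of 21 solute carriers 1 passed the fold each way, the taurine carrier Slc6a6 at 1.54-fold and Slc38a5, which is in the venous list too, with a median log2 ratio of -0.03, and none of 9 tight junction genes and none of 19 Wnt genes passed. Slc2a1 was 1.21-fold, Cldn5 0.856, Lef1 1.00 and Lrp8 1.05. Of 11 capillary genes 9 were below 1 in the upper cells, with Car4 at 0.587 and Tfrc at 0.635, while Ivns1abp was past the fold upward. Of 15 TGF-beta and BMP genes 3 were higher past the fold in the upper cells, Tgfb2 and the inhibitory Smads, Smad6 at 2.39-fold and Smad7 at 1.60-fold. All 20 early genes stood below 1 in the upper cells and 10 passed the fold, with Fos at 683 against 1194 CPM. Without cells with a Fos UMI, 7 of 11 arterial genes and 6 of 9 venous genes still passed the fold.

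Ordering the members by Tfrc, the transferrin receptor, was also chosen after seeing the data. Of the 4636 members, 1411 had 3 or more Tfrc UMIs, 1712 had 0 and 1513 had 1 or 2, of which 934 had exactly 1. At matched depth, 1135 cells with 3 or more were set against 1135 with 0. Of 6958 genes 72 (1.03%) were higher and 73 (1.05%) lower past the fold, 2.08% in all. Both orders share the same cells, so they are not independent of each other.

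Venous and capillary genes were higher in the cells with Tfrc. Of 10 venous genes 5 passed the fold upward, among them Icam1, Nr2f2, Slc38a5 and Tmsb10, and of 10 capillary genes without Tfrc 4 did (Car4, Slc16a1, Slc22a8 and Slc7a1). Ndnf, a secreted neuron-derived factor, stood at 319 CPM with Tfrc and 95.2 without, 3.35-fold (3.05 to 3.69). Wnt5a, a Wnt ligand, was 2.87-fold, Slc38a5 2.25-fold, Slc16a1 1.87-fold, at 428 against 229, Car4 1.81-fold and Apcdd1 1.69-fold. Arterial genes were lower, 7 of 12 past the fold and none higher. Sema3g stood at 47.4 against 148, 0.321 of the level, and Hey1 was at 0.541. None of the 20 early genes passed the fold in this comparison, and Ivns1abp was 1.17-fold.

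Per cell, the summed lists set the lower Cxcl12 cells apart and changed stepwise across Tfrc. They sum the same list genes as the ratios above, without matching for depth. Median UMIs were 4199 in the upper, 4793.5 in the middle and 4619 in the lower Cxcl12 cells. Across Tfrc they were 4035 with 0 UMIs, 4446 with 1 or 2 and 5593 with 3 or more. The median member of the upper Cxcl12 cells had 2144 CPM of arterial and 1867 of venous genes. The cells between the cuts had 2101 and 1831, and the lower cells 1250 and 3783. Across Tfrc, the medians were 2286 and 1802 with 0 UMIs, 1845 and 2151 with 1 or 2, and 1503 and 2631 with 3 or more. The middle cells of Cxcl12 thus lay near the upper ones.

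**Figure D4:**
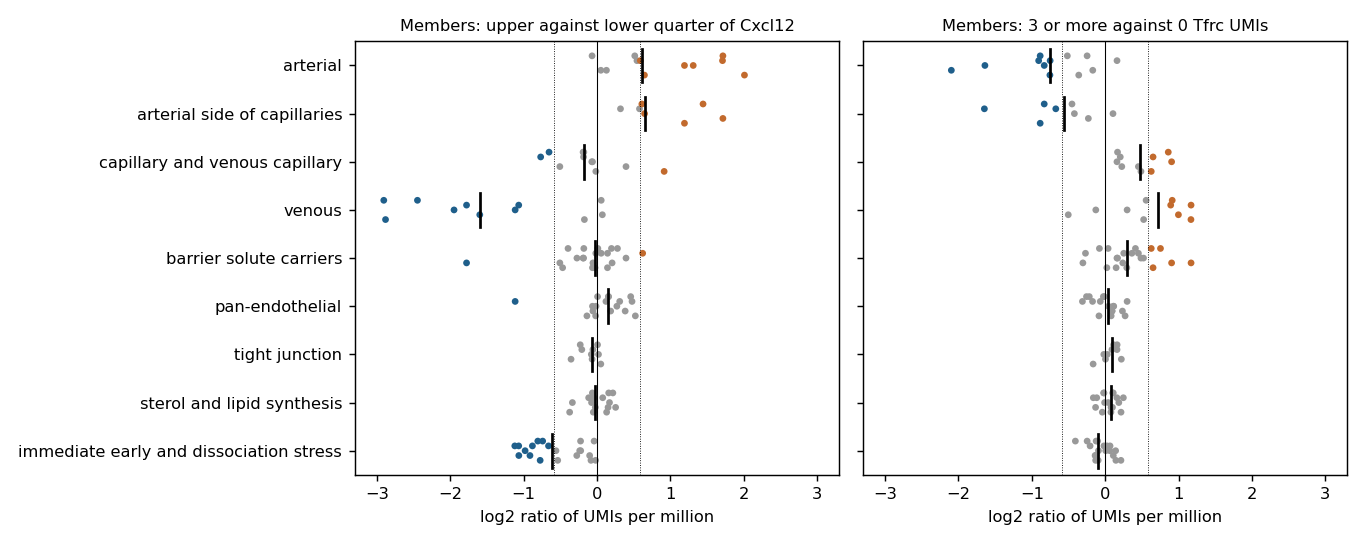
Each point is the log2 ratio of 1 gene among the members at matched depth, by list: upper over lower 25% of Cxcl12 (left) and 3 or more over 0 Tfrc UMIs (right). Colours, bars and dotted lines are as in the plot of the lists against comparison cells; 11 of 12 arterial genes lie above 0 on the left and 11 of 12 below on the right, 9 of 11 venous genes lie below on the left and 8 of 10 above on the right, and tight junction genes stay between the dotted lines.

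Cells with much Tfrc or Fos took different shares of the groups. Of all members 30.4% had 3 or more Tfrc UMIs, and at matched depth 27.3% against 14.6% of comparison cells, or 24.8% against 17.0% of the zonation-free ones. For 3 or more Fos UMIs the shares were 19.3% of all members, then 17.5% against 22.9% and 11.8% against 17.6% at matched depth. Without matching, 20.8% of comparison cells and 15.8% of the zonation-free ones had 3 or more Fos UMIs, on either side of the members' share.

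The bulk RNA libraries gave the members' genes in whole endothelium of 3 organs. Brain libraries held 15907235 to 21792786 counts, lung 2992101 to 11308897 and liver 18485600 to 25690571, and brain was compared with lung and with liver, which share the brain libraries. In bulk, fewer cells of a type and less RNA per cell cannot be told apart. The libraries are labelled biological replicates, but nothing says they came from separate animals, so p-values measure only the spread between these samples. A gene was called by edgeR's quasi-likelihood test with Benjamini-Hochberg adjustment at adjusted p under 0.05 and a log2 change of at least 1. Of 13216 genes, 667 (5.05%) were called higher and 958 (7.25%) lower in brain than lung, and 985 (7.45%) higher and 1152 (8.72%) lower than liver.

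Mfsd2a was a brain gene in these libraries. It stood at 123, 172 and 174 counts CPM (CPM) in the 3 brain libraries, at 0 in all lung libraries and at 0.487, 0 and 0 in liver. All brain values lay above all others. Against lung this was at least 1106-fold, taking 3 counts over the group as the floor. Against liver the log2 change was 9.87 ± 1.14 (SE, n = 3 each; adjusted p = 9.52e-05, edgeR's quasi-likelihood test with Benjamini-Hochberg adjustment).

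Of the 95 genes higher in the members than in all comparison cells, 86 could be tested in bulk. Of these, 37 (43.0%) were called higher in brain than lung and 5 lower, with a median log2 change of 2.10 where all genes had 0. Against liver 40 (46.5%) were called higher and 7 lower, with a median of 3.00 against 0.01. Both shares lay above the 5.05% and 7.45% of all genes. The genes of these sets needed at least 200 UMIs in brain cells, a filter that was not put on all genes. The shares are therefore not like for like, and the part of this filter was not tested. Of the 256 tested genes lower in the members, 31 (12.1%) were called higher in brain than lung and 66 (25.8%) lower, and 68 (26.6%) higher than liver and 57 (22.3%) lower, so their shares also lay above those of all genes. Of the 24 tested genes higher against the zonation-free cells, 8 were called higher than lung and none lower, and 7 higher than liver and 2 lower. Of the 57 tested genes lower against those cells, 27 were called higher in brain than liver and 6 lower, while against lung 11 were higher and 15 lower.

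The 2 genes shown by their promoters were higher in brain. Ivns1abp stood at 895, 1040 and 671 CPM in brain. The lung libraries had 352, 154 and 197 CPM and the liver libraries 375, 244 and 332, so every brain library lay above the rest. The log2 change was 1.94 ± 0.30 against lung (SE; adjusted p = 0.000623) and 1.28 ± 0.29 against liver (adjusted p = 0.00755), by edgeR's quasi-likelihood test with Benjamini-Hochberg adjustment. Lrp8 stood at 518, 679 and 478 CPM in brain and at no more than 0.578 in any lung or liver library, with log2 changes of 10.76 ± 0.86 and 12.27 ± 0.89. Its range was therefore much wider between organs than that of Ivns1abp.

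Tfrc and the carriers Slc22a8, Slc7a1, Slc7a5 and Slc16a1 were called higher in brain against both organs. Slc22a8 stood at 602, 887 and 783 CPM in brain and at 0 in all 6 other libraries, at least 5361-fold higher than lung and at least 17058-fold higher than liver, with 3 counts over the group as the floor. Tfrc stood at 793, 319 and 696 in brain and 10.2, 1.67 and 13.4 in lung, a log2 change of 6.18 ± 0.96 (adjusted p = 0.00182, edgeR's quasi-likelihood test with Benjamini-Hochberg adjustment). Brain replicate 2 was the low library for Tfrc, still above every other organ. Slc7a1 and Slc7a5 had log2 changes of 4.67 and 6.58 against lung and 7.66 and 4.43 against liver, and Slc16a1 6.97 and 6.83. Cxcl12 stood at 3682, 4550 and 4312 CPM in brain. Its lung values were 434, 223 and 310 CPM and its liver values 21.8 to 29.3, without overlap.

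Car4 and Nkd1, both higher in the members, were not higher in brain than in lung. Car4 stood at 218, 190 and 153 CPM in brain and at 350, 423 and 492 in lung, so every lung library was higher, with a log2 change of -1.13 ± 0.40 that was not called (adjusted p = 0.0839, edgeR's quasi-likelihood test with Benjamini-Hochberg adjustment). With the lung and brain libraries fitted alone, or without liver replicate 1 or 2, Car4 was called lower, with log2 changes of -1.14, -1.13 and -1.13. DESeq2 also called it lower, at -1.18. Against liver Car4 was called higher in brain, with a log2 change of 11.60. Nkd1 stood between 99.3 and 107 in brain and at 249, 381 and 231 in lung, also not called, and it was not called against liver either (log2 change 0.44). Apcdd1, from the same pathway, was called higher in brain against both, with log2 changes of 6.66 and 9.92. Cldn5, the junction gene shared by endothelia, was not called against lung, with a log2 change of -0.38, and was called higher than liver, at 2.71.

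**Figure D5:**
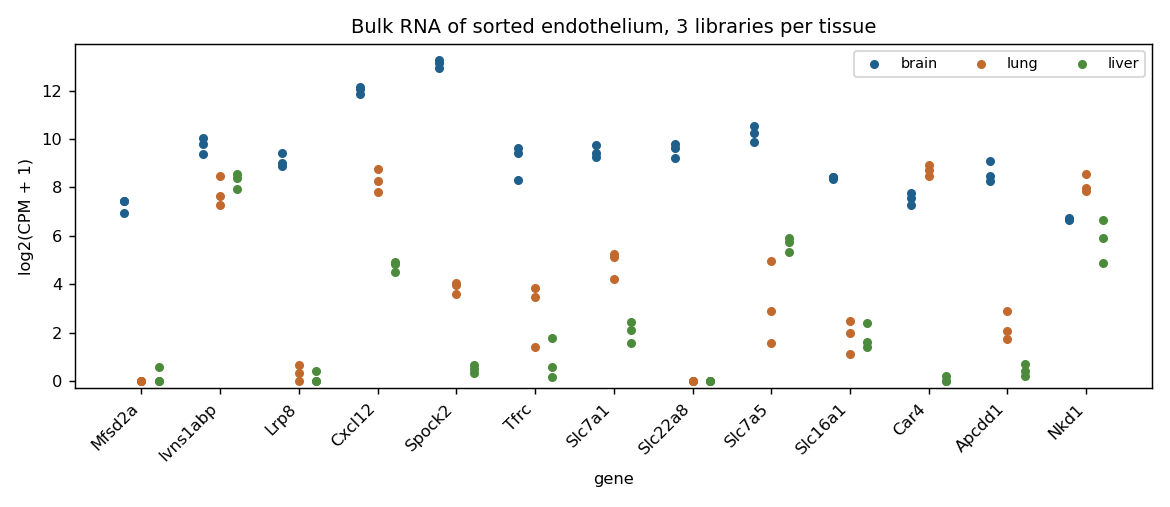
Level of 13 genes named for the members in the bulk libraries, as log2(CPM + 1), with 1 point per library and 3 libraries each of brain, lung and liver. Mfsd2a, Lrp8, Tfrc and the Slc genes are higher in all brain libraries than in any other, Ivns1abp is detected in all 3 organs, and Car4 and Nkd1 are higher in all lung libraries than in brain.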

How the data were processed

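The single-cell library of sorted brain endothelium and the bulk RNA libraries were used as deposited: UMI counts per gene and cell, and read counts per gene and library, both raw counts by their values. Per the submitters' processing notes, Cell Ranger 1.2.0, TopHat, Bowtie2, SAMtools 1.10.2, HTSeq 0.6.1 and Picard were used, with the builds mm9 and mm10, not tied to an assay; the strand setting is not given in the sources used here. Chromatin accessibility was not analysed here.

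The rule on cells, the members and the gene lists were chosen with earlier results of these data known. Of 9405 barcodes, none of which occurred more than once, 494 had under 500 genes and 386 had over 10% mt- UMIs. No doublet caller was run. Kept cells of the groups were drawn with a fixed seed in equal numbers per bin of 0.25 of log2 total UMIs, their UMIs were summed, and levels in CPM with exact Poisson intervals were compared. Ratios have a conditional binomial interval. With 1 library there is no replicate check and no p-value between cells. Lists covered endothelial segments (pan-endothelial, arterial, capillary, venous, fenestrated), carriers and efflux pumps, lipid handling and synthesis, caveolae, tight junctions, transcription factors, Wnt, Notch, TGF-beta, VEGF, basement membrane, early genes, interferon, cell cycle and 9 other cell types. Genes were named as the 12 with the largest ratio each way whose intervals did not overlap (6 for the other planned comparisons, 10 for the Cxcl12 and Tfrc comparisons), up to 4 per list, and 12 that are always given. Names given only as members of a small count were chosen after their values were seen.

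Bulk counts were fitted with edgeR 4.0.16 (TMM, filterByExpr, quasi-likelihood, robust) over 9 libraries, with Benjamini-Hochberg adjustment over 13216 of 24176 genes. DESeq2 1.42.0, other normalization, filters, left-out libraries and a replicate block were alternatives, as were other draws, thinning, cell filters, minimum counts and folds in the cells. Scripts ran in Python 3.11.15 and R 4.3.3 and were tested on simulated data. Some genes that met the naming rule are not reported here.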

Additional observations from a re-analysis of the deposited data

How the results depend on the processing

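Over all alternatives, 76 of 102 counts of genes stayed within 1.5 times the reported count. The number past the fold in members against all comparison cells was 373. It was 588 with a minimum of 100 UMIs, 209 with 500, 1177 at a looser fold limit (log2 ratio of 0.32), 162 at 2-fold, 221 with membership read at thinned depth and 145 without cells with a Fos UMI. Against the zonation-free cells the count of 92 became 189, 34, 573 and 24 under the same minimums and folds, and 45 without Fos cells. For members with more against 1 Mfsd2a UMI, 43 became 130, 13, 371 and 12, and 27 without Fos cells. For the Cxcl12 order, 202 became 367, 91, 888 and 62. For the Tfrc order, 145 became 265, 65, 695 and 28, then 86 thinned and 94 without Fos cells. Fewer or more genes pass by construction when the minimum or fold moves. For thinned depth and for cells without Fos the cause was not tested. With another seed for the draw, 25 of the 43 genes by Mfsd2a count passed again, and without depth matching 14.

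Capillary genes past the fold in the first comparison numbered 9 as reported, 4 with membership at thinned depth and 6 without the deepest 5% of cells; for carriers the counts were 7, 2 and 5.

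In bulk, 37 genes higher in members were called higher in brain than lung and 40 than liver. Leaving out each library in turn gave 32 to 38 and 37 to 46, and DESeq2 gave 38 and 48. The replicate block gave 35 and 40. The labels do not say whether same-numbered samples are paired. Same-numbered deviations correlated from -0.00325 to 0.0779 and the others from -0.0704 to 0.0553. With so few libraries per tissue these values cannot decide whether samples were paired.

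For single genes, 2677 values kept direction and side, 351 moved by more than their interval, 14 lost a call, 18 gained one and 23 changed sign. On the log2 scale, members over all comparison cells, Cnp went to -0.14 with at least 1000 genes and at most 5% mt- UMIs, -0.22 with endothelial cells alone, -0.003697 with members of 2 or more Mfsd2a UMIs, -0.27 with members with Cldn5, -0.19 without Fos cells and -0.28 without hemoglobin-high and Ttr-high cells. Hba-a1 went to 0.70, Hba-a2 to 0.19 and 0.72 and Hbb-bt to 0.10. Against the zonation-free cells Ttr went to 0.0196. By Mfsd2a count, Cnp went to 0.11, Hbb-bs to 0.0028344 and Hbb-bt to 0.99, 0.47 and 0.018. In bulk with each library left out in turn, Angpt2 ran from -0.41 to 0.46 against lung (negative without brain or lung replicate 2) and Hey1 from -0.33 to 0.062 (positive without lung replicate 1 or 2). Against liver, Htra1 ran from -0.29 to 1.32 and Igfbp3 from -0.073081 to 0.61. Htra1 was negative without brain replicate 3 or liver replicate 1 (-0.011) and Igfbp3 without brain replicate 1. The cause was not tested.

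Depth limits genes under 200 UMIs, which were not compared, and members resting on 1 Mfsd2a UMI. The number of animals and of libraries (1) limits every comparison of cells.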
